A study of Homo sapiens with 24 samples.

Results

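The MAP kinase cascade genes are the 43 coding genes in the hg19 version of GENCODE 44 whose symbol is MAPK, MAP2K, MAP3K, or MAP4K followed by a number, among 20098 protein-coding genes on chromosomes 1 to 22 and X. They comprise 13 MAPK, 7 MAP2K, 18 MAP3K, and 5 MAP4K genes. The rule uses the symbol alone and no measured value, although earlier results of these data were known when it was chosen. They were examined for binding of the calcium-binding cytokine subunits S100A8 and S100A9 to chromatin in MCF-10A cells, a nontransformed human mammary epithelial line, that carry ER-Src, a fusion of v-Src with the ligand-binding domain of the estrogen receptor. In every group the cells also stably expressed S100A8-Flag or S100A9-Flag from an introduced construct. They received 1 μM 4-hydroxytamoxifen (TAM) for 24 hours, which activates ER-Src and leads to transformation, or the vehicle ethanol (EtOH). Flag ChIP after dual cross-linking gave 2 peak lists for S100A8 in EtOH and 3 each for S100A8 in TAM, S100A9 in EtOH, and S100A9 in TAM, each called by the authors against input. Fixation joined proteins to each other before formaldehyde joined them to DNA, so a peak marks the tagged protein itself or a complex that holds it.

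MAP kinase cascades relay signals from the cell surface through kinases that phosphorylate each other in turn. MAP4K or small GTPases act on MAP3K, MAP3K phosphorylate MAP2K, and MAP2K phosphorylate the terminal MAPK, which are the ERK, JNK, and p38 kinases. ERK signaling drives proliferation of mammary epithelial cells and is activated by Src and Ras, whereas JNK and p38 respond to stress and inflammatory cytokines and phosphorylate transcription factors such as the AP-1 subunits.

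A peak was used if its q value was 1e-07 or below. It was assigned to a promoter if its summit lay from 1500 bp before to 250 bp after a transcription start site (TSS) of a coding transcript, and to a locus if the summit lay in a promoter, in the gene, or within 20 kb of it. At this threshold the EtOH lists held 1853 to 4609 peaks and the TAM lists 21518 to 40735, so that TAM and EtOH differed in the length of their lists at all genes. No read numbers are given, the depth is unknown, and lower depth and weaker binding cannot be told apart by the lists. Promoters of basal mammary markers were called in at least 2 TAM libraries for 6 of 8 genes, among them KRT5, KRT14, and ITGB4, but TP63 and CDH1 had no call. Of 6 leukocyte markers, 4 had no call, among them PTPRC, CD3E, and SPI1, and CD14 and ITGAM were called in 6 and 3 TAM libraries. Promoters of 4 of 5 luminal markers and 1 of 4 fibroblast markers were also called in at least 2 TAM libraries, so that the calls are not shown to be particular to basal markers.

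Sites from among those called in the most libraries are shown here by the reference sequence around their summits. They were read from the plus strand of hg19, 50 bp to either side of the summit, with annotated untranslated bases left out. Capitals mark exact matches, on either strand, to the motifs CGGAAG of ETS factors, CCCCGCCC of KLF and SP1 factors, TGANTCA of AP-1, and TGACGTCA of CREB. The first is the single site at these genes that was called in all 11 libraries, 3′ of MAP2K1 and at the promoter of its neighbor SNAPC5 (chr15:66790134-66790234, intergenic).
MAP2K1 downstream site: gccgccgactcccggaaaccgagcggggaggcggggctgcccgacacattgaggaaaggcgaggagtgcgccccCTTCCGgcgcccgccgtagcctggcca
The next came from an intron of MAPK6 (chr15:52312006-52312106), 608 bp downstream of a TSS of the gene, in 9 libraries.
MAPK6 intronic site: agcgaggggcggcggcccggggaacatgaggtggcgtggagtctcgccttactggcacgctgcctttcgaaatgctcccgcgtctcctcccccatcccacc
The MAP2K1 promoter (chr15:66679085-66679164, intergenic, 80 of 101 bp) was likewise called in 9 libraries and is shared with TIPIN.
MAP2K1 promoter: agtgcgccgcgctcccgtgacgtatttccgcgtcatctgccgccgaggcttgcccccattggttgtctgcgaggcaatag
A site 3′ of MAP3K13, at the promoter of TMEM41A (chr3:185216824-185216875, 52 of 101 bp), and the MAP3K21 promoter (chr1:233463109-233463209, intergenic) were each called in 8 libraries. The MAP3K5 promoter site was also called in 8 but lay mostly over untranslated sequence and is not shown. A promoter site of MAPK6 that is shared with LEO1 was called in 8 libraries as well and is not shown either.
MAP3K13 downstream site: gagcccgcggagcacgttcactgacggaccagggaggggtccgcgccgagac
MAP3K21 promoter: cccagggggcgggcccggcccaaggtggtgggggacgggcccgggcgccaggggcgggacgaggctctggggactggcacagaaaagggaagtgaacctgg
Of the 3 promoter sites called in all 6 TAM and no EtOH libraries, those of MAP3K13 (chr3:185000595-185000695, intergenic) and MAP4K4 (chr2:102313932-102314032, intron) are shown, and these were added after their values were seen. The third, at MAP4K3, lay mostly over untranslated sequence.
MAP3K13 promoter: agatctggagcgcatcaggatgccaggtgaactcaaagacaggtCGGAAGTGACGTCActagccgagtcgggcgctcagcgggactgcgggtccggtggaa
MAP4K4 promoter: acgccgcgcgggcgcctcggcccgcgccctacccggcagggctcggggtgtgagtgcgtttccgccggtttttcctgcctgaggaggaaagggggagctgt
In the MAP3K13 promoter an ETS match ended 1 bp before the summit, and a CREB match followed it without a gap, from the summit to 7 bp beyond.

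Promoter peaks were found at few of the 43 genes in EtOH and at most of them in TAM. A promoter peak in at least 2 replicates was present at 2 genes for S100A8 in EtOH (4.61% of all coding genes), at 24 for S100A8 in TAM (36.7% of all), at 2 for S100A9 in EtOH (5.69% of all), and at 33 for S100A9 in TAM (43.0% of all). As a share of the 43 genes these were 4.65, 55.8, 4.65, and 76.7%, near the background in EtOH and above it in TAM. The rule was stricter for S100A8 in EtOH, where both of 2 libraries had to hold the peak, than for the other groups (2 of 3). Over single libraries, 19 of the 43 had a promoter peak in at least 1 EtOH library (44.2%, against 29.0% of all coding genes), and 39 in at least 1 TAM library (90.7%, against 60.6%). In all 6 TAM libraries, 11 had one (25.6%, against 13.9%). The kinase genes were longer than others, with a median length of 80.6 kb against 27.3 kb, and had a median of 4 coding TSSs against 3. The part of length and TSS number in the higher share was not tested. Per library, 4 to 7 of the 43 promoters were called in EtOH and 22 to 33 in TAM.

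The share of calls moved with the length of the lists. When the same number of top peaks by q value was taken from each library (1853, the length of the shortest list), 2.8 ± 0.84 (SD, n = 5) of the 43 promoters were called per EtOH library and 2.5 ± 1.22 (SD, n = 6) per TAM library. Of all coding genes, 5.57% were then called per EtOH library and 4.61% per TAM library. At equal list length, the mean number of these promoters called in TAM did not exceed that in EtOH. Equal length removes any gain over the whole list in advance, so these counts cannot show whether binding rose. The 1853 peaks are the whole of the shortest EtOH list but only the top of each TAM list. Likewise, the peaks at the 43 loci made up 4.33 ± 1.07 per 1000 peaks in EtOH (SD, n = 5) and 4.20 ± 0.11 in TAM (SD, n = 6), a difference smaller than the spread between EtOH libraries.

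**Figure D1:**
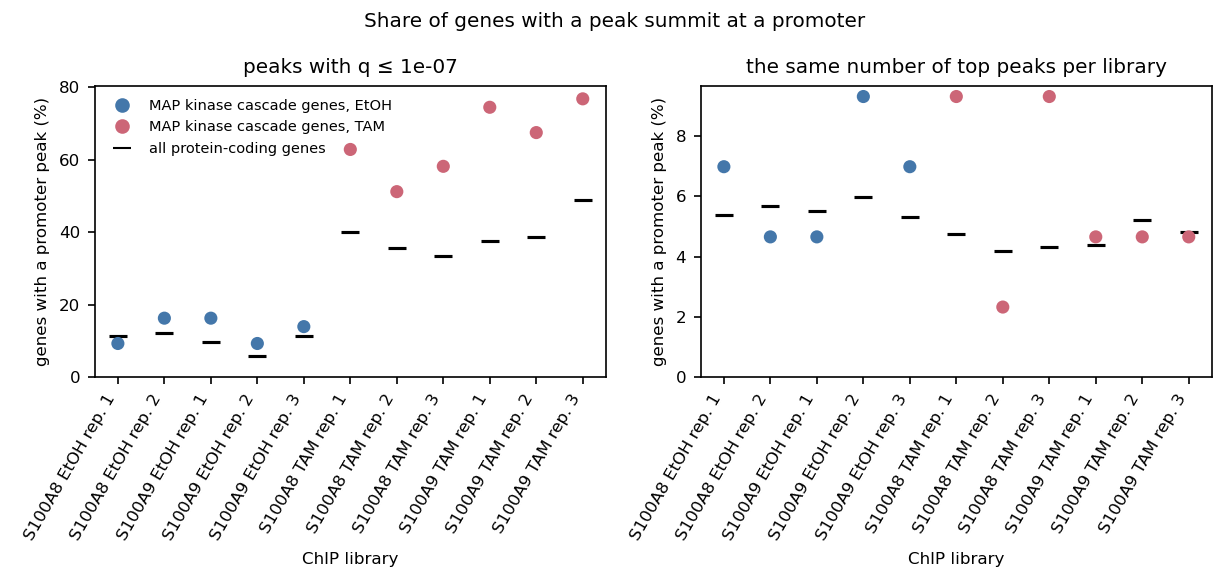
Percentage of the 43 MAP kinase cascade genes (points) and of all protein-coding genes (black dashes) with a promoter peak in each library, with all peaks of q ≤ 1e-07 (left) and with the 1853 top peaks of each list (right). On the left, TAM points lie between 51.2 and 76.7% and EtOH points between 9.30 and 16.3%, and on the right the treatments overlap.

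Among the terminal kinases, 11 of 13 MAPK genes had a promoter peak in at least 1 TAM library, as did 60.6% of all coding genes. Promoters of MAPK6, which encodes the atypical kinase ERK3, were called in all 6 TAM libraries and in 3 EtOH libraries. At the promoter peak of lowest q value in each library, the fold enrichment over input was 12.8, 8.86, and 13.9 for S100A8 in TAM. For S100A9 in TAM it was 8.63, 6.76, and 14.0. In EtOH it was 10.03 and 6.31 for S100A8 and 5.63 for S100A9 replicate 1, with no call in the other 2 libraries. The S100A8 values came from a site 23 bp upstream of a TSS, called in 5 TAM and 2 EtOH libraries. The S100A9 values came from the site shared with LEO1, called in 6 TAM and 2 EtOH libraries. These values therefore do not compare the proteins at the same site. MAPK14, encoding p38α, and MAPK10, encoding the neuronal JNK3, were called in all 6 TAM libraries and in 1 EtOH library each. The confident promoter site of MAPK10 was shared with PTPN13. It lay 38 bp from a TSS of PTPN13 and 224 bp from the nearest coding TSS of MAPK10. The ubiquitous JNK genes MAPK8 and MAPK9 were called in 5 and 4 TAM libraries and never in EtOH. MAPK3, encoding ERK1, was called in 4 TAM libraries and never in EtOH. MAPK7, encoding ERK5, was called in 5 TAM libraries and in 1 EtOH library. Calls in TAM were fewer at MAPK11 (p38β, 3 libraries), MAPK12 (p38γ, 2), and MAPK4 (ERK4, 1). These had no call in EtOH, and MAPK13 (p38δ) and MAPK15 (ERK8) had none in any library. At MAPK13 a site centered 107 bp upstream of the annotated 5′ end of the gene was called in all 6 TAM libraries and never in EtOH, with a fold enrichment from 7.84 to 10.1. It was not a promoter call because no coding transcript starts there, and the nearest coding TSS lay 2782 bp away.

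All 7 MAP2K genes, whose products phosphorylate the terminal kinases, had a promoter peak in at least 1 TAM library (60.6% of all coding genes). MAP2K1, encoding MEK1, the activator of ERK, was called in all 6 TAM and in 3 EtOH libraries. Its promoter fold enrichment was 6.56, 6.16, and 10.2 for S100A8 in TAM and 7.58, 8.33, and 6.10 for S100A9 in TAM, against 8.69 and 7.79 for S100A8 in EtOH and 10.2 for S100A9 replicate 1 in EtOH. Where it was called, its values in EtOH and TAM therefore overlapped. MAP2K3, encoding the p38 activator MKK3, had promoter calls in all 6 TAM libraries, at 6.77 to 15.2, and in 1 EtOH library at 8.09. These calls came from more than 1 site. The confident promoter site was called in 5 TAM libraries and 0 EtOH libraries. The EtOH call lay at a site centered 1505 bp upstream of a TSS, which was called in 5 TAM libraries. MAP2K5 (MEK5) and MAP2K7 (MKK7, an activator of JNK) were each called in 4 TAM libraries, MAP2K2 (MEK2) and MAP2K4 (MKK4) in 3, and MAP2K6 (MKK6) in 1. Of these, MAP2K5 was called in 1 EtOH library and the others in none.

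The MAP3K tier had promoter peaks in at least 1 TAM library at 16 of 18 genes (60.6% of all coding genes). MAP3K13, encoding the leucine zipper kinase LZK, had 6 TAM and no EtOH calls. Its fold enrichment in TAM was 8.49, 8.62, and 7.26 for S100A8 and 15.2, 12.8, and 11.7 for S100A9. In EtOH its promoter had deposited peaks that missed the q threshold, at 5.95 for S100A8 and 7.05 and 4.59 for S100A9. These were below its lowest TAM value of 7.26. MAP3K5 (ASK1), MAP3K12 (DLK), and MAP3K21 (MLK4) were also called in all 6 TAM libraries, and in 2, 1, and 2 EtOH libraries. MAP3K7, encoding TAK1, which relays cytokine signals to JNK, p38, and NF-κB, was called in 5 TAM libraries and never in EtOH. MAP3K8 (TPL2), MAP3K10 (MLK2), and MAP3K11 (MLK3) were called in 5 TAM libraries. MAP3K8 had some of the highest values, at 15.2 and 14.9 in S100A8 TAM replicates 1 and 3 and 16.2 in S100A9 TAM replicate 2. Calls in 4 TAM libraries were found at MAP3K3 (MEKK3), MAP3K4 (MEKK4), MAP3K6 (ASK2), MAP3K9 (MLK1), MAP3K14, and MAP3K20 (ZAK), in 3 at MAP3K2 (MEKK2), and in 2 at MAP3K1 (MEKK1). In EtOH, MAP3K11 was called in 2 libraries, MAP3K1, MAP3K2, MAP3K4, MAP3K8, MAP3K10, and MAP3K20 in 1 each, and MAP3K3, MAP3K6, and MAP3K9 in none. MAP3K15 and MAP3K19 had no promoter call in any library.

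MAP3K14, encoding NIK, the kinase of the noncanonical NF-κB pathway, had the smallest difference in promoter calls between treatments among the 22 genes called in at least 5 libraries. Its promoter was called in 3 of 5 EtOH libraries, at 10.3 for S100A8 replicate 2 and at 9.67 and 8.54 for S100A9 replicates 2 and 3. In TAM it was called in S100A8 replicate 1 at 11.9 and in the S100A9 replicates at 8.04, 10.6, and 7.92. With the 1853 top peaks of each list, it was called in those 3 EtOH libraries and in no TAM library. The values thus overlapped. These 1853 peaks are a larger share of an EtOH list than of a TAM list.

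All 5 MAP4K genes, whose products act upstream of JNK, had a promoter peak in at least 1 TAM library (60.6% of all coding genes). MAP4K3 (GLK) and MAP4K4 (HGK) were called in all 6 TAM and no EtOH libraries. At MAP4K4 the fold enrichment in TAM was 12.4, 7.88, and 12.1 for S100A8 and 12.6, 10.6, and 5.58 for S100A9. At MAP4K3 it ranged from 5.99 to 9.83. In EtOH both promoters had deposited peaks that missed the q threshold. Their fold enrichment at MAP4K4 was 5.43 for S100A8 and 5.48 and 5.98 for S100A9. At MAP4K3 it was 6.98 for S100A8 and 6.78 for S100A9. These EtOH values overlapped the lower TAM values, so the absence of EtOH calls depended on the threshold. MAP4K5 (KHS1) was called in 5 TAM libraries, MAP4K1 (HPK1, a kinase best known from blood cells) in 4, and MAP4K2 in 1. MAP4K5 was the only MAP4K gene called in EtOH, in 1 library.

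For promoter calls, TAM was tested against EtOH by an exact permutation test that exchanged libraries of the same protein, two-sided, with p values adjusted over all genes by the Benjamini-Hochberg method. Genes called in at least 5 of the 11 libraries were tested, which were 22 of the 43. The filter does not use the labels, but the TAM lists are longer. MAPK8, MAP3K7, MAP3K13, MAP4K3, and MAP4K4, which had no EtOH call, met it through TAM libraries alone. None of the 22 passed an adjusted p of 0.05, as for all genes (0% of 6275), where the smallest adjusted p was 0.110. In this test 9 of the 22 genes and 2265 of the 6275 had an unadjusted p under 0.05, all higher in TAM, and no other tool was run. The smallest p that the 200 arrangements allow is 0.01, in this exact permutation test, and it was reached by MAP3K13, MAP4K3, and MAP4K4 alone among these genes. They are 13.6% of the 22, against 9.07% of all genes tested.

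For counts of peaks over the whole locus, most of the genes passed. In the same exact permutation test, 31 of the 40 genes tested (77.5%) had more peaks in TAM at an adjusted p under 0.05, against 63.5% of all 13545 genes tested, and none had fewer. Of the tested genes with a length in the range of the middle 50% of these genes (22.3 to 136 kb), 61.7% had more. In 17 of the 40 (42.5%, against 31.5% of all), every TAM library was above every EtOH library. The difference between TAM and EtOH, averaged over the proteins, ranged from 1.00 peak at MAP3K21 to 7.42 at MAPK6. The 9 genes tested that did not pass were MAPK3, MAP2K2, MAP3K1, MAP3K2, MAP3K4, MAP3K11, MAP3K14, MAP3K21, and MAP4K1. MAP2K4 and MAP2K6 were among the genes with calls in too few libraries to be tested. Some of the tested genes had no EtOH peak and entered the test through TAM libraries alone. These were MAPK3, MAPK4, MAPK8, MAPK9, MAPK11, MAPK12, MAPK13, MAP3K3, MAP3K7, MAP3K15, MAP3K19, MAP4K3, and MAP4K4. Among the upstream kinases, 4 of 5 MAP4K genes passed, as did 12 of 18 MAP3K, 4 of the 5 tested MAP2K, and 11 of the 12 tested MAPK genes. These calls depended on the number of libraries and on the lengths of the lists. Without either S100A8 EtOH library, or without S100A9 EtOH replicate 1 or 2, no gene passed (smallest adjusted p 0.0504 to 0.0591, exact permutation). The smallest p that the arrangements allow was then 0.025 (S100A8) or 0.02 (S100A9), against 0.01 with all libraries. It was also 0.02 without S100A9 EtOH replicate 3, where 18 of the 40 genes tested and 5470 of all 13368 tested passed. The cause was not tested. Without each of the TAM libraries, 18 to 24 of these genes passed, with 35 to 38 of them tested. Of all genes, 5016 to 6042 then passed, with 11746 to 12347 tested. With the 1853 top peaks per list, none of the 5 genes tested and none of all 1938 tested passed.

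**Figure D2:**
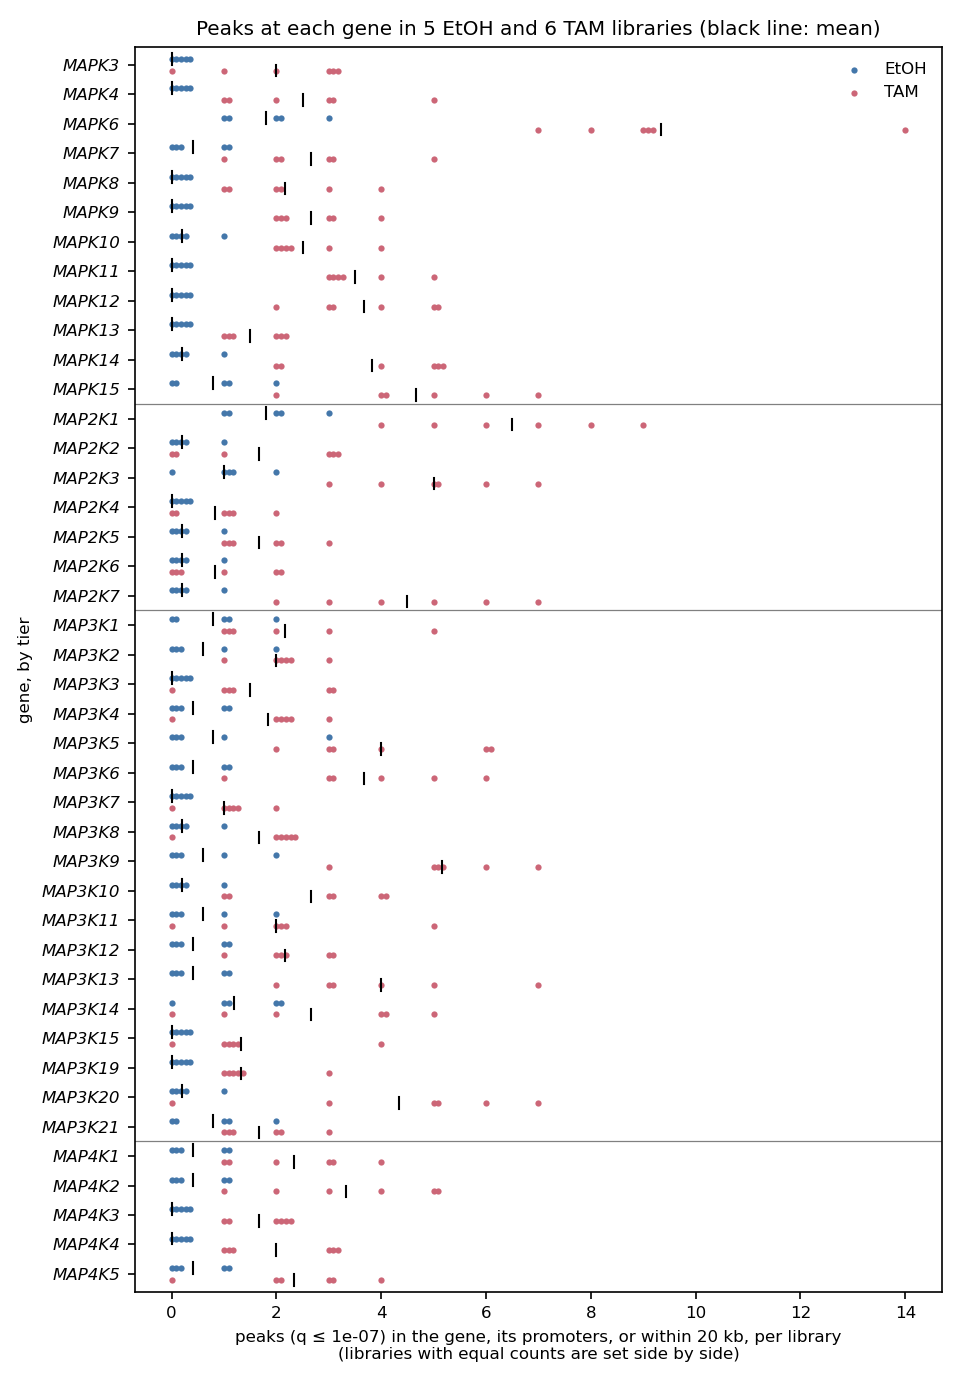
Number of peaks (q ≤ 1e-07) in each gene named in the text, at its promoters, or within 20 kb, in the 5 EtOH libraries (blue) and the 6 TAM libraries (red), with the mean of each treatment as a black line. MAPK6 and MAP2K1 lie farthest to the right, at 7 to 14 and 4 to 9 peaks in TAM.

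MAPK6 had the most peaks. S100A8 gave 3 and 2 with EtOH and 9, 9, and 7 with TAM, and S100A9 gave 1, 1, and 2 with EtOH and 8, 9, and 14 with TAM, so that the treatments did not overlap (adjusted p = 0.0274, exact permutation). Of these, 2.00 per TAM library were at promoters, 4.50 elsewhere in the gene, and 2.83 in the flanks. MAP2K1 followed, with 3 and 2 peaks for S100A8 with EtOH and 8, 7, and 4 with TAM, and 2, 1, and 1 for S100A9 with EtOH and 5, 6, and 9 with TAM (adjusted p = 0.0274, exact permutation). Here too, no EtOH library reached the lowest TAM library.

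At MAP3K9, S100A8 gave 0 and 2 peaks with EtOH and 5, 6, and 5 with TAM, and S100A9 gave 0, 1, and 0 with EtOH and 3, 5, and 7 with TAM. At MAP2K3, S100A8 gave 1 and 1 with EtOH and 5, 3, and 4 with TAM, and S100A9 gave 0, 1, and 2 with EtOH and 7, 5, and 6 with TAM. Neither gene overlapped between treatments, and both passed (adjusted p = 0.0274, exact permutation). MAPK14 likewise did not overlap, with 0 and 0 with EtOH and 5, 5, and 2 with TAM for S100A8, and with 0, 1, and 0 with EtOH and 2, 4, and 5 with TAM for S100A9. MAP3K13 had 0 and 1 with EtOH and 2, 3, and 4 with TAM for S100A8, and 0, 0, and 1 with EtOH and 3, 5, and 7 with TAM for S100A9, again without overlap.

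MAPK15, MAP3K5, and MAP3K20 passed although their treatments overlapped. MAPK15 had 1 and 2 peaks with EtOH and 6, 5, and 4 with TAM for S100A8, and 0, 0, and 1 with EtOH and 4, 2, and 7 with TAM for S100A9, of which 3.67 per TAM library lay in the flanks and none at its promoter. MAP3K5 had 0 and 3 with EtOH and 4, 2, and 3 with TAM for S100A8, and 0, 0, and 1 with EtOH and 6, 3, and 6 with TAM for S100A9. It lost its call when any 1 of the 11 libraries was left out. MAP3K20 had 0 and 1 with EtOH and 0, 3, and 5 with TAM for S100A8, and 0, 0, and 0 with EtOH and 6, 5, and 7 with TAM for S100A9, and lost its call in 10 of the 11 omissions. So did MAPK7, MAP2K5, MAP3K6, MAP3K8, MAP3K10, MAP3K12, MAP4K2, and MAP4K5. MAP3K3, MAP3K7, and MAP3K15 kept theirs in 1 of the 6 omissions in which they were tested. The other genes that passed, MAPK15 among them, kept theirs in 7 of 11. MAP3K14, which did not pass (adjusted p = 0.197, exact permutation), had 1 and 1 with EtOH and 4, 1, and 0 with TAM for S100A8, and 0, 2, and 2 with EtOH and 4, 2, and 5 with TAM for S100A9.

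In TAM, 22 of the 43 promoters were called in at least 2 replicates of both proteins, 2 of S100A8 only (among them MAP2K2), and 11 of S100A9 only (MAPK9, MAPK11, MAPK12, MAP2K4, MAP3K2, MAP3K3, MAP3K4, MAP3K6, MAP3K9, MAP3K14, and MAP3K20). No promoter was called in all 3 TAM libraries of one protein and none of the other. The number of promoters called per TAM library was 27, 22, and 25 for S100A8 and 32, 29, and 33 for S100A9. Of all coding genes, 33.3 to 40.0% were called for S100A8 in TAM and 37.7 to 49.0% for S100A9, so that the shares at all genes moved in the same direction. Locus counts of the proteins were compared in the same exact permutation test, within each treatment. None of the 40 genes passed (0% of all genes tested), and 0 of the 40 and 96 of all 13545 had an unadjusted p under 0.05. With few libraries and a smallest possible p of 0.01 in this exact permutation test, this does not show equal binding. The difference of S100A9 from S100A8 ranged from −0.92 peaks at MAPK15 to 1.42 at MAP3K20. The effect of TAM did not pass as different between proteins at any of the 40 (0% of all genes tested), with an unadjusted p under 0.05 at 1 of them and at 250 of all. That gene was MAP2K7, whose locus also had more peaks in TAM than in EtOH (adjusted p = 0.0274, exact permutation), with 0 and 1 peaks with EtOH and 3, 2, and 4 with TAM for S100A8, and 0, 0, and 0 with EtOH and 5, 6, and 7 with TAM for S100A9 (p = 0.04 unadjusted and 1 adjusted, exact permutation).

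To place the peaks, overlapping peaks present in at least 2 replicates of a condition were merged into confident sites, of which 138 lay at the 43 genes and 30322 in all. They comprised 39 promoter sites at 35 genes, 45 sites elsewhere in the genes, and 54 in the flanks. MAPK6 had 12, MAP2K1 had 8, and 10 genes had 1 each. Of the 138, 79 were called for S100A8 in TAM and 116 for S100A9 in TAM, and 57 for both, which is 72.2% of the former and 49.1% of the latter (71.1 and 52.0% over all sites). Only 3 were called for S100A8 in EtOH, where both of 2 libraries were required, and 4 for S100A9 in EtOH. No EtOH library had a peak at 95 of the 138 (68.8%, and 68.9% of all sites). The summits of both proteins were close, with a median distance of 43 bp at 106 shared sites (33 bp over all).

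The site 3′ of MAP2K1 shown above had a fold enrichment of 7.91 and 9.79 for S100A8 in EtOH and of 10.6, 8.27, and 11.9 for S100A9 in EtOH. In TAM it had 23.1, 6.89, and 11.2 for S100A8 and 21.0, 8.36, and 15.0 for S100A9. The lowest value was thus in TAM, and the treatments overlapped. This site lay in the promoter of SNAPC5, and the flanking sites in general were often at other genes. Of the 138 sites, 36 (26.1%) were at the promoter of another coding gene. These included 10 of the 39 promoter sites and 23 of the 54 flanking sites. The site 3′ of MAP3K13 at the promoter of TMEM41A, called in 6 TAM libraries at 9.94 to 21.1 and in 2 EtOH libraries, and a site 3′ of MAP2K7 at the promoter of SNAPC2, called in 6 TAM libraries at 8.17 to 18.5 and in 1 EtOH library, were of this kind. Of the 138 sites, 6 were near both MAPK13 and MAPK14 or both MAPK11 and MAPK12, and these neighbors share them.

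The intronic site of MAPK6 had the highest mean rank in TAM among the sites shown, at the 93.3rd percentile of fold enrichment within a list. Its values were 15.2, 11.2, and 15.5 for S100A8 in TAM and 10.7, 14.3, and 14.0 for S100A9 in TAM, above those of the EtOH libraries that called it (9.66, 9.96, and 10.5). The MAP2K1 promoter ranked lower, at the 35.0th percentile. At MAPK9 a site 1569 bp upstream of the TSS, just outside the promoter window, was called in all 6 TAM libraries at 6.95 to 14.8 and never in EtOH.

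**Figure D3:**
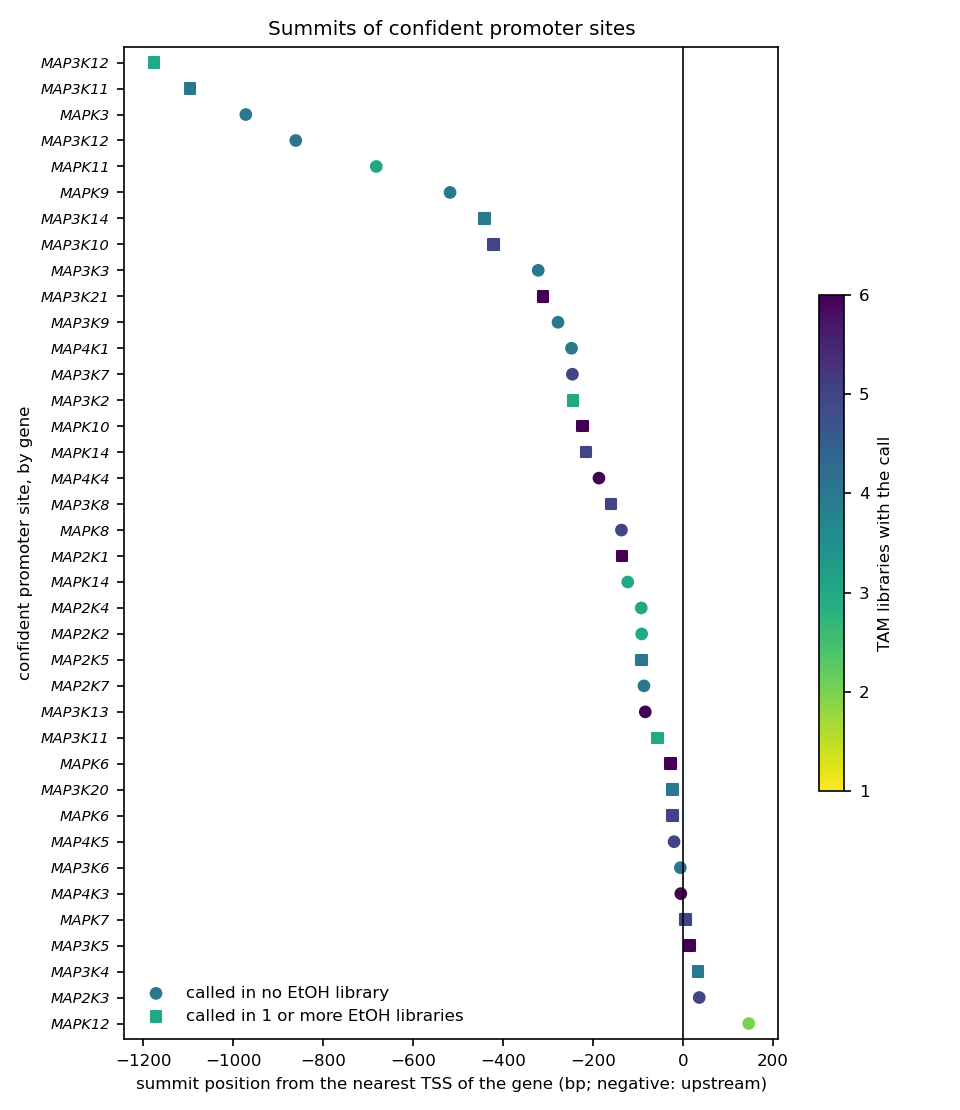
Position of the summit of each confident promoter site of the genes named in the text, from the nearest coding TSS of its gene, in bp, colored by the number of TAM libraries with a call and marked by a square where an EtOH library had one. Most summits lie upstream, as does most of the promoter window by definition, and the sites at MAP3K12 and MAP3K11 lie farthest from a TSS.

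Summits of the promoter sites lay upstream of the TSS in 34 of 39, with a median position of −136 bp. The promoter window reaches 1500 bp upstream and only 250 bp downstream. Most of it thus lies upstream by definition, and this count does not show a preference for the upstream side. Within 50 bp of the summit, the ETS motif was found at 6 of the 39 promoter sites (15.4%, and 17.3% of all promoter sites), among them those of MAP2K3, MAP3K7, MAP3K11, MAP3K13, and MAP4K3. The KLF and SP1 motif was found at 6 (15.4%, and 13.4% of all), among them those of MAPK6, MAPK7, MAP2K1, MAP3K2, and MAP3K12, where the match at MAP2K1 lay in bases left out above. The AP-1 motif was found at 2 (5.13%, and 5.60% of all), and the CREB motif at 1, that of MAP3K13 (2.56%, and 1.73% of all). At the 73 sites away from any coding promoter, the AP-1 motif was found at 23 (31.5%, and 31.1% of all such sites). These lay at 13 genes, among them MAPK6, MAPK14, MAP2K1, MAP3K5, MAP3K9, MAP3K13, MAP3K14, and MAP3K20. The shares at the kinase genes were close to those over all sites. In windows of 101 bp upstream of the 5′ end of every coding gene, the ETS, KLF and SP1, AP-1, and CREB motifs were present in 11.1, 18.9, 2.18, and 1.40%, respectively.

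Other genes of these pathways, a list of 40 that holds Ras proteins, RAF kinases, adaptors, scaffolds, and the kinases downstream of the MAPK, had promoter peaks in TAM at 36 (90%, against 60.6% of all coding genes) and in EtOH at 17 (29.0% of all coding genes). In the exact permutation test of locus peaks, 23 of the 36 tested passed, all with more peaks in TAM, which is near the 63.5% of all genes tested. None of the 40 had a promoter peak in all 11 libraries. Those that passed include HRAS, the RAF kinase gene ARAF, and the MAPK substrates MKNK2, RPS6KA2, and MAPKAPK3. RPS6KA2, encoding an RSK kinase, had a mean of 0.2 peaks in EtOH and 7.5 in TAM, and MKNK2, encoding a kinase of the translation factor eIF4E, had 0.4 and 7.0.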

How the data were processed

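ChIP-seq peak lists of 11 Flag ChIP libraries were used. The authors aligned reads to hg19 with Bowtie2, kept unique reads, and called narrow peaks per library against its input with MACS2, and tool versions are not given in the sources used here. The deposited lists give for each peak its fold enrichment over input at the summit (a ratio), and the deposited p and q values are on the −log10 scale. Lists reach q = 0.05, and peaks with −log10 q of at least 7 on chromosomes 1 to 22 and X were kept. Pol II and input libraries were not analysed here. Read numbers are not given, so no interval that needs the depth is printed, and fold enrichments were not tested between libraries. The study's methods call the replicates biological, the labels number them without naming separate cultures, and p values measure the spread between these libraries.

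Genes, TSSs, and untranslated regions were from GENCODE 44 on GRCh37. Summits were assigned with Python 3.11.15 and numpy 2.4.6, and a summit could count for more than 1 gene. Libraries were permuted exactly within each protein (treatment) or each treatment (protein), with the smaller tail doubled, and the procedure was tested on simulated data. The genes and lists were chosen with earlier results of these data known. All 43 genes entered every count, and items withheld from this text are not reported here by name. Values in every library were given for genes with promoter peaks in at least 3 EtOH libraries, and for the 10 with the most locus peaks in TAM. Other values and genes were chosen after they were seen. Replicate numbers were not treated as pairs.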

Additional observations from a re-analysis of the deposited data

How the results depend on the processing

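The lists, and so the number of calls, depend on the threshold. Depth is unknown, and calls near a threshold limit every count here. The settings also changed how many genes were tested. Kinase genes with more locus peaks in TAM (31 of 40 tested) became 18 of 28 with −log10 q of at least 10. They were 14 of 35 within 5 kb, 40 of 43 within 50 kb, and 11 of 28 with the nearest TSS only. They were 18 of 43 when genes with a call in at least 1 library were tested, and 0 of 5 with the equal number of top peaks. For all genes (8605 of 13545) the numbers were 5872 of 9259 with the stricter q and 2963 of 10950 within 5 kb. They were 13122 of 15887 within 50 kb, 2375 of 9087 with the nearest TSS, 4939 of 17738 with 1 library, and 0 of 1938 with the top peaks. Omission of 1 library gave 0 to 24 kinase genes and 0 to 6042 in all. For promoters in at least 2 replicates (2, 24, 2, and 33), every deposited peak gave 10 and 37 for S100A8 in EtOH and TAM and 20 for S100A9 in EtOH. The stricter q gave 0 in EtOH for both proteins, and the top peaks gave 0, 2, 1, and 0 in the same order. With the 5′ end of the gene only, S100A8 in EtOH gave 1. Omissions gave 17 to 19 for S100A8 in TAM, 0 to 1 for S100A9 in EtOH, and 25 to 27 for S100A9 in TAM.

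The 138 confident sites became 234 with every deposited peak, 84 with the stricter q, 10 with the top peaks, 209 within 50 kb, 78 with the nearest TSS, and 104 to 138 with 1 library omitted. Peaks at the kinase loci per 1000 (4.33 in EtOH and 4.20 in TAM) became 2.76 and 3.03 within 5 kb, 7.23 and 6.54 within 50 kb, and 2.42 and 2.53 with the nearest TSS. In TAM they were 3.83 with every deposited peak, 4.37 with the stricter q, and 4.59 with the top peaks, and omissions gave 3.93 to 4.58 in EtOH and 4.17 to 4.23 in TAM.

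Single genes turned direction at their loci with the top peaks, where TAM minus EtOH was −0.42 peaks at MAP2K1 and MAP3K14 and −0.17 at MAP2K3. The cause was not tested. At promoters, the difference in the fraction of libraries called was −0.17 at MAP2K5 with every deposited peak, and it ranged from −0.17 to 0.33 at MAP3K14 over the omissions, below 0 without S100A8 EtOH replicate 1 (−0.17) and without S100A8 TAM replicate 1 or S100A9 EtOH replicate 1 (−0.083 each). The promoter test, the test of S100A9 against S100A8, and the test of the difference between proteins gave 0 calls under every alternative run. With all libraries, the smallest p of 0.01 (exact permutation) was reached by 569 of 6275, 10 of 13545, and 16 of 13545 genes, in this order. After adjustment such a p passes only if many genes reach it. The 0 calls therefore do not show that there was no difference.

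Deviations of same-numbered EtOH and TAM libraries from their group means correlated at −0.032 to 0.064 over 5 pairs, and 3 of 5 EtOH libraries correlated best with their own number. With the replicate block, 0 genes passed, since 32 arrangements allow no p under 0.0625 in this exact permutation test.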
